A study of Mus musculus with 8 samples.

Results

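The cytosolic ribosomal protein genes of mouse dorsal root ganglia (DRG) were followed through recovery from an inflammation of the paw. They were chosen by symbol. A gene was a member when its symbol was Rpl or Rps with a number and at most a closing a, l or x, or when it was Rplp0, Rplp1, Rplp2 or Rpsa, and when its mean over the 8 libraries reached 1 CPM, a count scaled to a library total of 1000000. Of 81 matching symbols, 78 passed, out of 24421 genes in the deposited table. They comprised 43 genes of the large subunit, 32 of the small subunit and the 3 stalk genes. All 78 were among the 17328 genes that passed edgeR's filter on low counts and were tested, and the choice used no difference between time points. The 3 symbols below the minimum were the paralogs Rpl10l, Rpl39l and Rpl3l.

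RNA came from ganglia L3 to L5 of the injected side of wild-type C57BL/6J mice, which were 8 weeks old by the labels, while the study's methods give a range of ages of which 8 weeks is the lowest. The 0d libraries came from naive mice without any injection, and the 1d, 3d and 30d libraries from mice taken 1, 3 and 30 days after 20 µl of 1% carrageenan, a seaweed polysaccharide that inflames tissue, had been injected into the left hind paw. Each time point had 2 libraries, each a pool of 2 to 3 mice, so that spread is between pools and not between animals. As the 0d mice had no injection, carrageenan and the injection itself cannot be told apart.

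The ribosome translates mRNA in all cells. Its small subunit reads the mRNA, its large subunit joins amino acids, and a flexible stalk on the large subunit recruits the elongation factors. Apart from the acidic stalk proteins, a ribosome holds a single copy of each, and most of their mRNAs begin with a 5′ terminal oligopyrimidine (TOP) tract, a run of C and T bases through which the kinase mTOR and the protein LARP1 control their translation together. In sensory neurons ribosomes also act along axons, and translation there takes part in sensitization and repair after injury.

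Runs of C and T near the annotated start are shown here because most of the genes searched had one and the choice by name did not use them. Whether a run is the TOP tract of the mRNA was not tested, since this needs the start that the ganglia use. The stretches come from RefSeq promoter entries (GRCm38.p6), on the strand of the gene. Capitals mark the run of at least 8 bases of C or T that was found, with up to 8 bases on each side where the entry reaches that far. The 8 genes have such a run and are among the 3 with the smallest p in at least 1 comparison.
Rpl14, chr9:120571501-120571530, plus strand: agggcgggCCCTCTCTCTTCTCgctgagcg
Rpl31, chr1:39367825-39367853, plus strand: tcgccacaCCTCTTCCTCCTCgcctcccc
Rpl36a, chrX:134585673-134585701, plus strand: ggctctagCCTCTCTCTTTCCgagctgct
Rplp2, chr7:141447638-141447663, plus strand: cgtcagcgTCTTCCTTTCgccgccgg
Rps27, chr3:90213634-90213658, minus strand: cgctttcgCTCCTTTCCggcggtga
Rpl41, chr10:128549119-128549136, minus strand: gcagtaggCCTCCCTCTC
Rpl10, chrX:74270848-74270865, plus strand: tgggagcgTCTCTTTTCC
Rps2, chr17:24720095-24720112, plus strand: ccgcggcgCCTCCCTCTT

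In Rpl41, Rpl10 and Rps2 the run began 41 bases after the annotated start and reached the end of the entry, so its full length was not seen. In Rpl14, Rplp2 and Rps27 it spanned that start, in Rpl31 it lay wholly before it, and in Rpl36a it began 28 bases after it. RefSeq entries were found for 57 members, with 68 promoters among them, and the other 21 members were not searched. Of the 57, 46 had a run in at least 1 promoter and 11 had none. A run of at least 8 C or T between 30 bases before and 50 bases after the start was present in 49 of the 68 (72.1%), against 29.0% of all 32851 promoters and 27.1% of the 16071 promoters of tested genes. In 8 of the 49 it lay wholly before the start. The same search for A or G, which is the same run on the other strand, gave 16.2% against 32.2% and 30.6%. In the whole 300-base entries, searched on both strands, CCGGAAG, the core that ETS factors bind, was in 36.8% of the member promoters, in 8.86% of all promoters and in 14.1% of those of tested genes. AAGATGG, the core of the YY1 motif, was in 16.2% against 6.34% and 6.42%. TATAAA, the TATA box, was in 8.82%, below the 13.6% of all promoters but not below the 8.14% of those of tested genes. These are matches of letters, and binding was not measured. The 11 genes without a run of this length were Rpl22, Rpl23, Rpl24, Rpl27, Rplp0, Rps13, Rps16, Rps28, Rps3, Rps4x and Rpsa.

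The libraries held 44123208 to 73580338 counts, and the replicates of every time point differed by more than sampling noise. By its label each sample is DRG neurons, and all 10 neuron markers were present, with a summed level of 19830 to 21320 CPM. Markers of the other cells of a ganglion were present too. The summed Schwann cell and myelin markers reached 10790 CPM in 0d replicate 1 and 5436 CPM in 30d replicate 1, against 7670 to 9026 CPM in the other libraries. Red blood cell markers ran from 141 CPM in 0d replicate 1 to 515 CPM in 30d replicate 1, with 181 to 282 CPM in the others. Neutrophil markers were lowest and highest in the same libraries, at 25.9 and 121.6 CPM. Skeletal muscle markers ran from 18.04 CPM in 30d replicate 2 to 127.1 CPM in 0d replicate 1, and fibroblast markers stood at 1917 CPM in 0d replicate 1 against 1288 to 1410 CPM in the others. Lists of satellite glia, macrophages, endothelium and lymphocytes were also detected. None of the listed markers was at 0 in all libraries, and their part in the levels described here was not tested. In such bulk samples, fewer cells of a type and less RNA per cell cannot be told apart.

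The ribosomal protein genes were among the most abundant mRNAs of the ganglia. Per length, in RPKM, the CPM divided by the summed exon length in kilobases, their median was 151.9, against 6.10 over all genes tested, and the middle part of the genes between the quartiles ran from 94.8 to 199 RPKM. Of the 78 genes, 73 were in the top 10% of tested genes by this level and 67 in the top 5%. The subunits stood at the same height, with medians of 148.5 RPKM for the large and 148.2 RPKM for the small subunit. The members shared short transcripts, with a median exon length of 696 bases and 61 genes under 1000 bases. They were spread over 19 chromosomes, with Rpl10, Rpl36a, Rpl39 and Rps4x on the X chromosome.

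**Figure D1:**
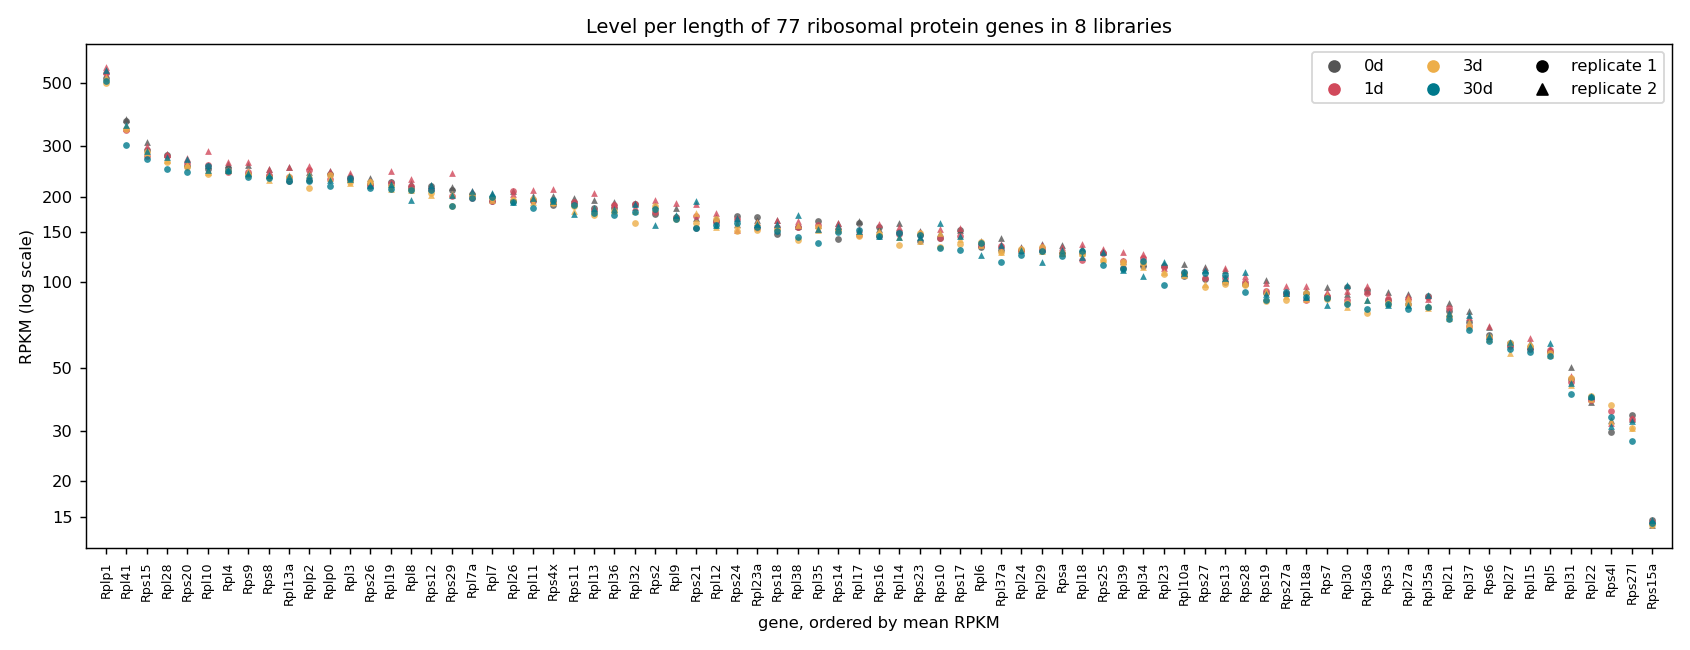
Level per length of 77 of the 78 ribosomal protein genes, in RPKM on a log scale, with genes ordered by their mean; each point is a library, coloured by time point, with circles for replicate 1 and triangles for replicate 2. The genes form a shallow slope from Rplp1, at a mean of 534.7 RPKM, to Rps15a, at 14.4 RPKM, and the 8 libraries of a gene lie close together.

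Rplp1, an acidic stalk protein that binds elongation factors, had the highest mean, 534.7 RPKM, with 500.8 RPKM in its lowest library and 570.5 RPKM in its highest. Rpl41, one of the shortest proteins that mammals encode, followed at a mean of 348.7 RPKM, with libraries from 302.6 to 374 RPKM. The ranges of these genes did not overlap. Rps15, which the small subunit needs to leave the nucleus, came next at 288.5 RPKM, then Rpl28 of the large subunit at 272.4 RPKM and Rps20 of the small subunit head at 260.2 RPKM. Of the 77 pairs of neighbours in the order of levels, 71 had overlapping libraries. The 6 pairs that lay apart were at the ends, Rplp1 above Rpl41 at the top and, at the bottom, Rps6 above Rpl27, Rpl5 above Rpl31, Rpl31 above Rpl22, Rpl22 above Rps4l and Rps27l above Rps15a.

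Rps15a, a core protein of the small subunit, had the lowest level per length, with 14 to 14.6 RPKM over the 8 libraries. It also had the longest exon length of the members, 5134 bases, by which its 73.8 CPM were divided, while the shortest member had 327 bases. Rps27l stood at 32.0 RPKM, Rps4l at 33.1 RPKM, Rpl22, which has a paralog in Rpl22l1, at 39.2 RPKM, and Rpl31, a protein at the exit of the peptide tunnel, at 45.3 RPKM. The highest mean was 37.2 times the lowest.

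Between paralogs that were both members, the usual gene was the higher. Rps27, a zinc-finger protein of the small subunit, had a mean of 105.4 RPKM, while its p53-inducible paralog Rps27l stood at 32.0 RPKM. The value of Rps27 includes read pairs that were also given to Rps27rt, which covers 60.0% of its length on the same strand and held nearly the same CPM, with a mean of 60.1. Rps27l held 15.9 and 15.4 CPM at 0d, 15.4 and 15.6 CPM at 1d, 14.3 and 14.3 CPM at 3d, and 12.9 and 15.1 CPM at 30d. All 4 libraries of 3d and 30d were thus below those of 0d and 1d. Rps4x, the X-linked copy of a small subunit protein, had 195.2 RPKM against 33.1 RPKM for Rps4l, which GENCODE vM21 lists as a processed transcript without a coding sequence. Rps4l held 28.1 and 31.0 CPM at 0d and 35.0 and 30.7 CPM at 3d, and these libraries overlapped. Rpl3l, the paralog of Rpl3 in striated muscle, held 17 to 49 counts per library, a mean of 0.458 CPM. Rpl39l, a paralog of Rpl39 known from testis, held 42 counts in all 8 libraries together. Rpl10l, the testis copy of Rpl10, had 0 of 472292481 counts, which allows up to 0.00635 CPM by counting error.

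Between libraries the members varied little. The coefficient of variation over all 8 libraries had a median of 4.35%, with a range from 1.56% for Rps15a to 8.75% for Rps29. Over all tested genes the median was 8.21%, and over the 8692 other genes within the same range of CPM it was 5.12%. These other genes were matched to the ends of the range alone and not to the members' levels within it. The ratio of the highest to the lowest library was between 1.04 for Rps15a and 1.30 for Rps29, a zinc-binding protein of the small subunit, with a median of 1.13.

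As a share of all counts, the 78 genes together held 0.913% and 0.956% of the 0d libraries, 0.919% and 0.958% of the 1d libraries, 0.890% and 0.898% of the 3d libraries, and 0.897% and 0.917% of the 30d libraries. The 95% Wilson intervals of these shares reached at most 0.0029 percentage points to either side, which covers counting error only. Both 3d libraries were below all 4 libraries of 0d and 1d, while 30d replicate 2 lay above 0d replicate 1. Large subunit genes held 0.506% to 0.543%, small subunit genes 0.319% to 0.344% and stalk genes 0.0643% to 0.0709% of the counts.

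Steps of this size also lay between replicates. In 0d replicate 2 and in 1d replicate 2, 72 of the 78 genes were above their own mean over the libraries, in each case against 32 and 37 genes in the matching replicate 1. Of the 78 genes, 66 were higher in replicate 2 than in replicate 1 at 0d, and 69 were so at 1d, 48 genes at 3d and 57 genes at 30d. The median difference between the replicates was 0.065 on the log2 scale for 0d and 0.074 for 1d. It was 0.0070 for 3d, where the libraries lay closest, and 0.054 for 30d. Except for 3d this is about the size of the median differences between time points given below. The nuclear RNAs Malat1, Neat1, Meg3, Kcnq1ot1, Snhg11 and Miat went the other way between the replicates of 0d and of 1d. All 6 were detected, and their summed level was 2516 and 1694 CPM at 0d, 2700 and 1701 CPM at 1d, 2090 and 2159 CPM at 3d, and 3527 and 3761 CPM at 30d. Their part in the levels of the ribosomal protein genes was not tested.

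**Figure D2:**
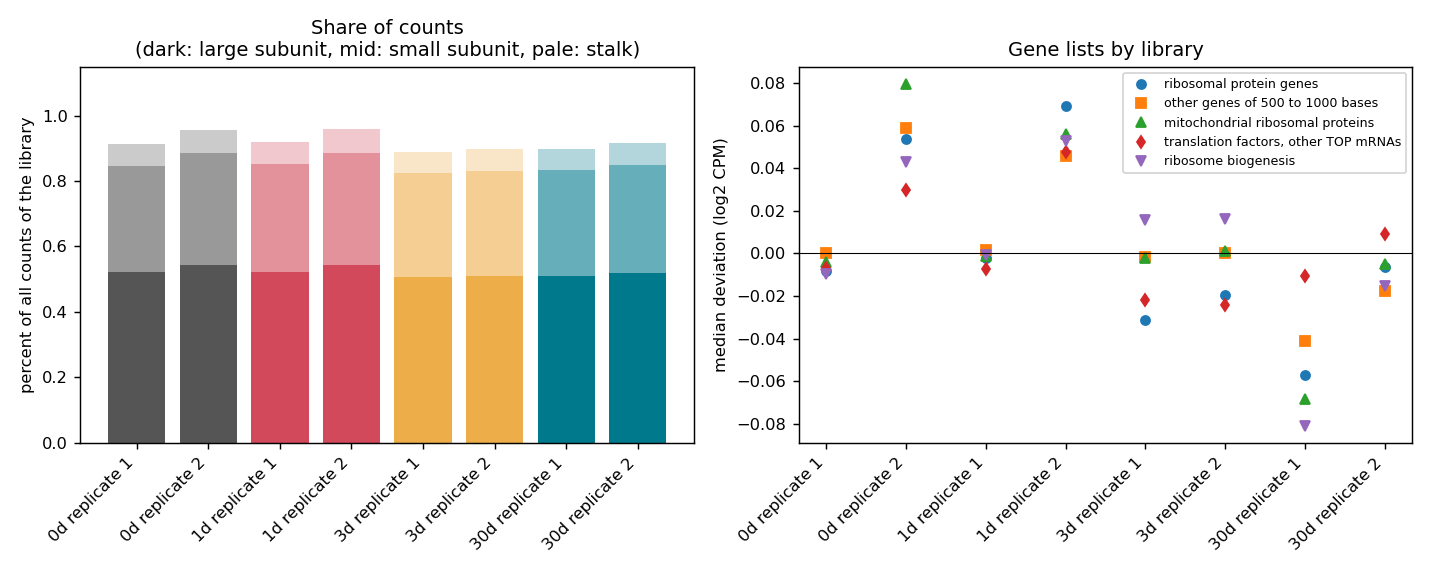
Left, share of each library's counts held by large subunit, small subunit and stalk genes, in percent; right, for each library, the median over the genes of a list of the deviation from the gene's own mean over the 8 libraries, in log2 CPM. The ribosomal protein genes were highest in replicate 2 of 0d and 1d, at 0.054 and 0.069, and other genes of 500 to 1000 bases stood at 0.059 and 0.046 in the same libraries.

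One day after the injection, the ribosomal protein genes showed no shift as a group. None of the 78 passed an adjusted p of 0.05 in edgeR's quasi-likelihood test, in which 0.346% of all genes were called. DESeq2 also called 0, and the smallest edgeR adjusted p was 0.883. At an unadjusted p under 0.05 there was 1 member (1.28%), against 4.47% of all genes, and there were 5 without 1d replicate 1, against 5.61% of all genes in that fit, and 3 without 30d replicate 1 or 2, against 6.45% and 6.46%. By the fit 42 genes were higher and 36 lower (46.2%), where 51.2% of all genes were lower, with a median log2 fold change of 0.0061 and a range from -0.12 to 0.15. The number of lower genes was 22 without 0d replicate 2, 20 without 1d replicate 1 and 58 without 1d replicate 2. The 95% intervals of all 78 lay between -0.24 and 0.38 on the log2 scale. Both 1d libraries were below both 0d libraries in 7 genes and above them in 5 (8.97% and 6.41%), against 16.4% and 15.5% of all genes.

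The gene with the smallest p at 1d was Rpl17, a large subunit protein that lines the peptide tunnel. Rpl17 held 125.5 and 127.6 CPM at 0d and 113.4 and 119.2 CPM at 1d. Both 1d libraries were below both 0d libraries. The fitted log2 fold change was -0.12 (standard error 0.05, 95% interval -0.22 to -0.02, edgeR adjusted p = 0.883). Rpl10, which joins the large subunit among the last proteins and completes its catalytic site, held 198.9 and 205.5 CPM at 0d and 204.5 and 229.4 CPM at 1d. These libraries overlapped, and 1d replicate 2 stood highest. The log2 fold change of Rpl10 was 0.10 (standard error 0.05, 95% interval -0.0085 to 0.21, edgeR adjusted p = 1), and it was 0.016 without 1d replicate 2 and 0.18 without 1d replicate 1. Rpl41 held 165.6 and 167.9 CPM at 0d and 153.2 and 156.2 CPM at 1d, without overlap. For Rpl41 the log2 fold change was -0.11 (standard error 0.06, 95% interval -0.24 to 0.026, edgeR adjusted p = 1).

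By 3d the members lay slightly lower as a group. The median log2 fold change against 0d was -0.056, and 69 of the 78 genes were below 0 (88.5%), against 50.8% of all genes. In 38 genes (48.7%) both 3d libraries were below both 0d libraries, and in 0 genes they were above, against 19.6% and 19.9% of all genes. The lower genes included 39 of 43 of the large subunit, 27 of 32 of the small subunit and all 3 of the stalk. None was called by edgeR, in which 0.219% of all genes were called, and the smallest adjusted p was 0.471. DESeq2 called 0 as well. At an unadjusted p under 0.05 there were 8 members (10.3%), against 5.94% of all genes, and there were 4 without 0d replicate 2, 0 without 3d replicate 1 and 5 without 3d replicate 2. The share of all genes in these fits was 5.98%, 2.62% and 2.79%. The genes of a library move together, as the replicates show, so the count of lower genes is not a count of separate observations. Without 0d replicate 2 the median was -0.026 and 51 genes were lower, and without 0d replicate 1 it was -0.084 and 74 were lower. The intervals of all 78 genes lay between -0.35 and 0.34.

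Rpl14 of the large subunit had the smallest p at 3d. It held 140.9 and 151.2 CPM at 0d and 126.1 and 134.7 CPM at 3d. Both 3d libraries were lower than both 0d libraries. For Rpl14 the log2 fold change was -0.16 (standard error 0.05, 95% interval -0.28 to -0.05, edgeR adjusted p = 0.471). Rpl17 stood at 113.1 and 116.2 CPM at 3d, below its 0d libraries and overlapping its 1d libraries. Its log2 fold change against 0d was -0.14 (standard error 0.05, 95% interval -0.24 to -0.04, edgeR adjusted p = 0.481). Rpl32, a large subunit gene often used as a reference in quantitative PCR, held 95.1 and 95.8 CPM at 0d and 81.61 and 90.03 CPM at 3d. Here too the groups lay apart, with 3d replicate 1 the lowest of all 8 libraries. For Rpl32 the log2 fold change was -0.15 (standard error 0.06, 95% interval -0.27 to -0.03, edgeR adjusted p = 0.63), and it was -0.08 without 3d replicate 1.

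At 30d the median was again -0.056 against 0d, with 64 genes lower and 14 higher. The lower genes were 82.1% of the members, against 50.1% of all genes. Both 30d libraries lay below both 0d libraries in 33 genes (42.3%) and above them in 1 (1.28%), against 20.2% and 19.4% of all genes. No member was called by edgeR, where 0.0231% of all genes were called, nor by DESeq2, and the smallest edgeR adjusted p was 0.278. The 9 members with an unadjusted p under 0.05 were 11.5% of the 78, against 12.3% of all genes. With the compared groups fitted alone there were 3, against 8.04% of all genes. In the fit of all groups that number was 1 without 0d replicate 2, 16 without 0d replicate 1 and 15 without 30d replicate 2, where 6.93%, 14.1% and 12.8% of all genes did so. The median was -0.027 without 0d replicate 2, -0.086 without 0d replicate 1 and -0.032 without 30d replicate 1. The 1d, 3d and 30d comparisons share the 0d libraries, so their values are not independent of each other.

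Rplp0, which anchors the stalk proteins Rplp1 and Rplp2 to the large subunit, had the smallest p at 30d. It held 326.0 and 334.3 CPM at 0d, 314.4 and 333.3 CPM at 1d, 323.5 and 317.1 CPM at 3d, and 296.6 and 310.8 CPM at 30d. Both 30d libraries were the lowest of the 8. The log2 fold change of Rplp0 at 30d was -0.12 (standard error 0.04, 95% interval -0.21 to -0.03, edgeR adjusted p = 0.278). Rpl41 held 135.9 and 160.1 CPM at 30d, both below its 0d libraries but far from each other. The log2 fold change of Rpl41 was -0.17 (standard error 0.06, 95% interval -0.31 to -0.04, edgeR adjusted p = 0.291). This value rested on 30d replicate 1. Without that library the log2 fold change was -0.06, and without 30d replicate 2 it was -0.30 with an edgeR adjusted p of 0.0114, the only call of a member under the alternatives run. Rpl31 held 57.6 and 63.1 CPM at 0d and 50.9 and 55.6 CPM at 30d, without overlap. Rpl31 had a log2 fold change of -0.18 (standard error 0.07, 95% interval -0.32 to -0.04, edgeR adjusted p = 0.302), and it was -0.11 without 0d replicate 2. Exons of Tbc1d8 on the other strand cover 33.1% of the exon length of Rpl31, and as the counting ignored strand, reads of the genes cannot be told apart there.

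**Figure D3:**
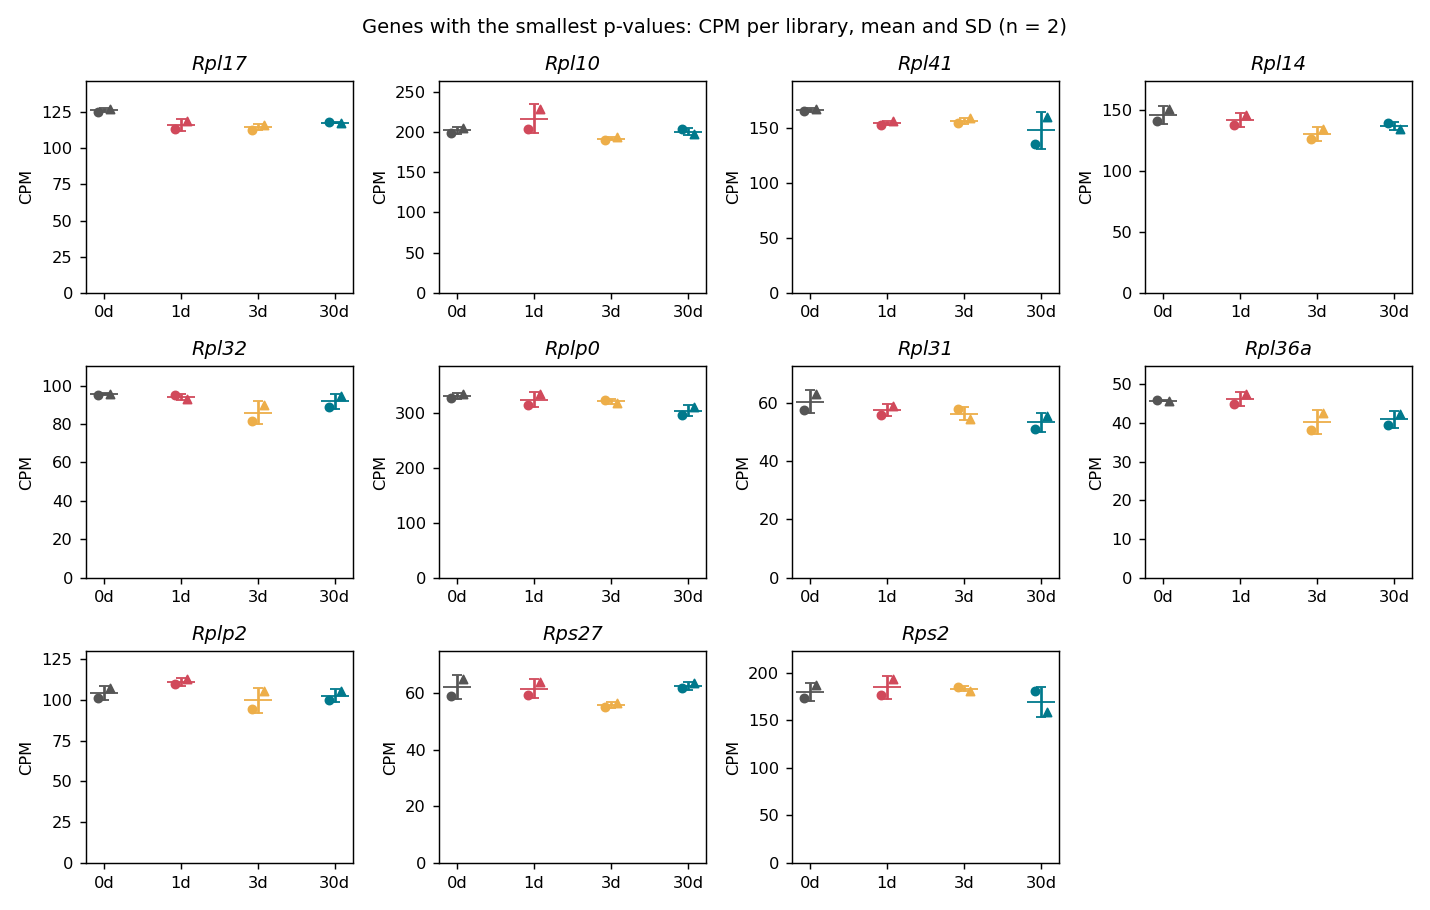
CPM of the 11 genes with the smallest p-values in the 5 comparisons, by time point, with circles for replicate 1, triangles for replicate 2, and the mean and SD of the 2 libraries as a bar with whiskers; each axis starts at 0. Differences between time points are small against the level of each gene, and for Rpl41 at 30d and Rpl10 at 1d the replicates lie apart.

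The step from 1d to 3d had the highest number of lower members among the 5 comparisons. Of the 78 genes, 72 were lower at 3d than at 1d (92.3%), against 49.2% of all genes, with a median log2 fold change of -0.064. In 37 genes (47.4%) both 3d libraries were below both 1d libraries, and in 0 they were above, against 17.6% and 20% of all genes. edgeR called no member, with 0.289% of all genes called, and DESeq2 called 0. The smallest edgeR adjusted p was 0.434, and 10 members (12.8%) had an unadjusted p under 0.05, against 4.24% of all genes. Here 1d replicate 2 weighed most. Without it the median was -0.023, 54 genes were lower and 0 had an unadjusted p under 0.05, and without 1d replicate 1 the median was -0.098 and 16 genes did. Without 3d replicate 1 there were 2 such genes. Of all genes, 2.91%, 5.93% and 2.05% had such a p in these fits.

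Rpl10 had the smallest p in this step, with 190.5 and 193.7 CPM at 3d below its 204.5 and 229.4 CPM at 1d. The fitted value for Rpl10 was -0.18 on the log2 scale (standard error 0.05, 95% interval -0.29 to -0.07, edgeR adjusted p = 0.434), and it was -0.09 without 1d replicate 2. Rpl36a, another X-linked gene of the large subunit, held 44.99 and 47.54 CPM at 1d and 38.1 and 42.5 CPM at 3d. Both 3d libraries were below both of 1d, and also below the 45.9 and 45.7 CPM of 0d. For Rpl36a the log2 fold change was -0.20 (standard error 0.07, 95% interval -0.35 to -0.05, edgeR adjusted p = 0.772), and it was -0.12 without 3d replicate 1. The stalk gene Rplp2 held 109.6 and 113.0 CPM at 1d and 94.5 and 105.4 CPM at 3d, again apart. Rplp2 had a log2 fold change of -0.15 (standard error 0.06, 95% interval -0.28 to -0.03, edgeR adjusted p = 0.843), and leaving out 3d replicate 1 or 2 gave -0.08 or -0.24. Rplp2 had stood at 0d at 101.1 and 107.2 CPM, a range that overlapped that of 3d.

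From 3d to 30d the genes again lay evenly around 0, with a median log2 fold change of 0.0022, 42 genes higher and 36 lower (46.2%), where 49.9% of all genes were lower. edgeR called 0 members, where 0.935% of all genes were called, and DESeq2 called 0. The smallest edgeR adjusted p was 0.271, and 1 member (1.28%) had an unadjusted p under 0.05, against 13% of all genes. Without 30d replicate 1 that number was 12, without 30d replicate 2 it was 4 and without 3d replicate 1 it was 0, beside 20.8%, 11.6% and 6.2% of all genes. The number of lower genes was 24 without 30d replicate 1 and 55 without 30d replicate 2. In 12 genes (15.4%) both 30d libraries were above both 3d libraries and in 10 (12.8%) below, against 22.9% and 23.5% of all genes. The member with the smallest p, Rps27, had both 30d libraries above both 3d libraries, with 55.2 and 56.6 CPM at 3d and 61.8 and 63.6 CPM at 30d. Rps27 had a log2 fold change of 0.17 (standard error 0.06, 95% interval 0.03 to 0.30, edgeR adjusted p = 0.271). It had held 59.1 and 65.2 CPM at 0d and 59.4 and 64.1 CPM at 1d, so that 3d was its lowest time point.

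Rplp0 had a log2 fold change of -0.08 from 3d to 30d (standard error 0.04, 95% interval -0.17 to 0.015, edgeR adjusted p = 0.467), and it was -0.05 without 30d replicate 1. Rps2, at the mRNA entry of the small subunit, held 185.6 and 181.4 CPM at 3d and 180.6 and 158.4 CPM at 30d. Both 30d libraries were below those of 3d, with 30d replicate 1 just under them. The log2 fold change of Rps2 was -0.11 (standard error 0.06, 95% interval -0.25 to 0.024, edgeR adjusted p = 0.472), and it was -0.024 without 30d replicate 2 and -0.21 without 30d replicate 1. Of the genes that belong with the stalk and the small subunit by other names, Rplp1 held 243.7 and 258.9 CPM at 0d, 253.2 and 267.0 CPM at 1d, 234.4 and 246.9 CPM at 3d, and 238.2 and 259.7 CPM at 30d. Its libraries overlapped between all time points but 1d and 3d, where both 3d libraries were the lower ones. Rpsa, known also as the laminin receptor, held 235.8 and 251.8 CPM at 0d, 235.9 and 248.2 CPM at 1d, 236.4 and 236.5 CPM at 3d, and 230.2 and 241.7 CPM at 30d, again with overlap throughout.

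**Figure D4:**
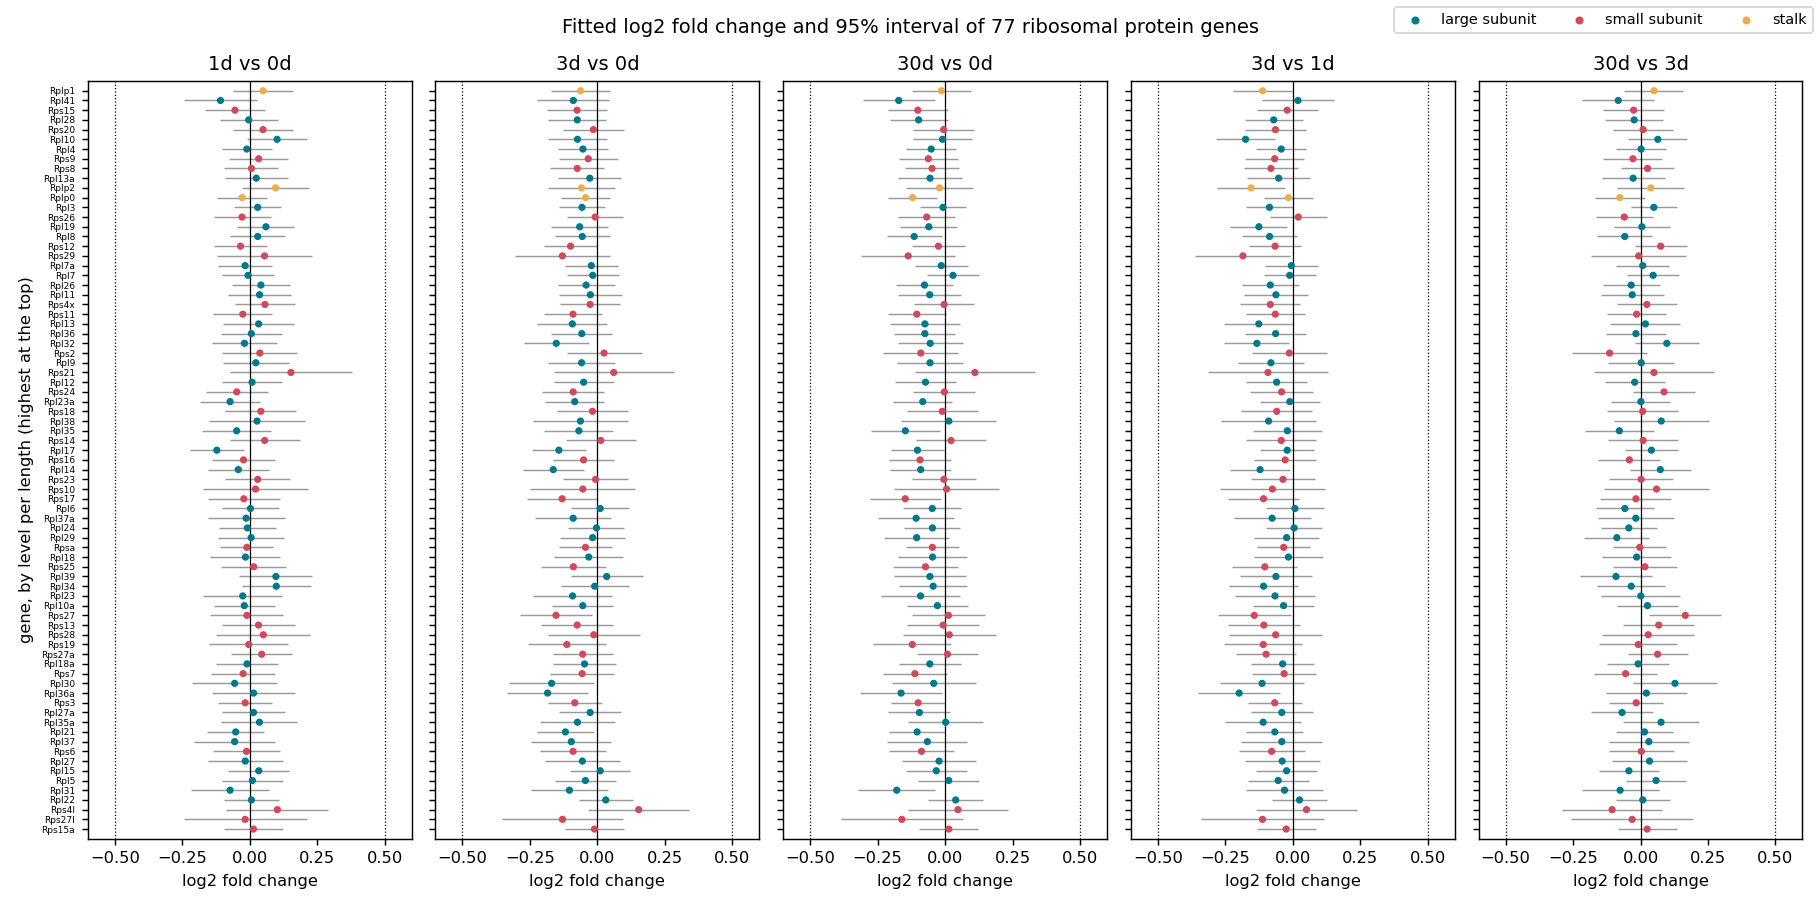
Fitted log2 fold change of 77 of the 78 ribosomal protein genes in the 5 comparisons, with its 95% interval as a grey line, ordered by level per length and coloured by subunit; dotted lines mark -0.5 and 0.5. Every interval lies inside the dotted lines, and the points lie mostly left of 0 in 3d vs 0d, 30d vs 0d and 3d vs 1d.

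Across the comparisons the precision for these genes was high. The median standard error of their log2 fold changes was 0.05, against 0.11 over all genes. In each comparison the 95% intervals of all 78 members lay within 0.5 of 0 on the log2 scale, and those of 64 to 76 members within 0.25. The median size of the log2 fold change was 0.029 to 0.064 over the comparisons for members and 0.076 to 0.11 for all genes. The tested genes span all levels, and no set matched to the members by level was compared for these values.

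The lower values at 3d and 30d were shared in part by other genes of 500 to 1000 bases, but not by those of at most 500 bases. The 1144 other tested genes of 500 to 1000 bases were at a median of -0.013 for 1d, -0.042 for 3d and -0.056 for 30d, each against 0d on the log2 scale, beside the members' 0.0061, -0.056 and -0.056. From 1d to 3d these genes stood at -0.024 and the members at -0.064. The 467 other genes of at most 500 bases lay at 0.0079 for 3d and 0.11 for 30d against 0d, where the 15 members of that length lay at -0.063 and -0.075. The tested genes include entries of microRNAs and small nucleolar RNAs, such as Mir29c and Snord47. The bins of length were not split by kind of gene, so the shortest bin may not compare with the members' mRNAs. Both libraries lay below both in 23% of the other genes of 500 to 1000 bases for 3d against 0d, 28.5% for 30d against 0d and 20.5% for 3d against 1d, beside 48.7%, 42.3% and 47.4% of the members. The members also varied less between libraries than most genes, as given above, and the part of this in these shares was not tested. With a smooth trend on gene length removed from each library, the members' medians were 0.0038 for 1d, -0.044 for 3d and -0.032 for 30d against 0d, and -0.049 for 3d against 1d. The genes lower at 30d were then 52 of 78, where 56% of all genes were lower in that fit. Of the members, 3 in place of 9 had an unadjusted p under 0.05, while the share of all genes with such a p stayed at 12.3%. For 3d against 1d that number became 5 in place of 10, with 3.98% in place of 4.24% of all genes. In the longest genes, over 5000 bases, the medians were 0.020 at 3d and 0.035 at 30d.

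**Figure D5:**
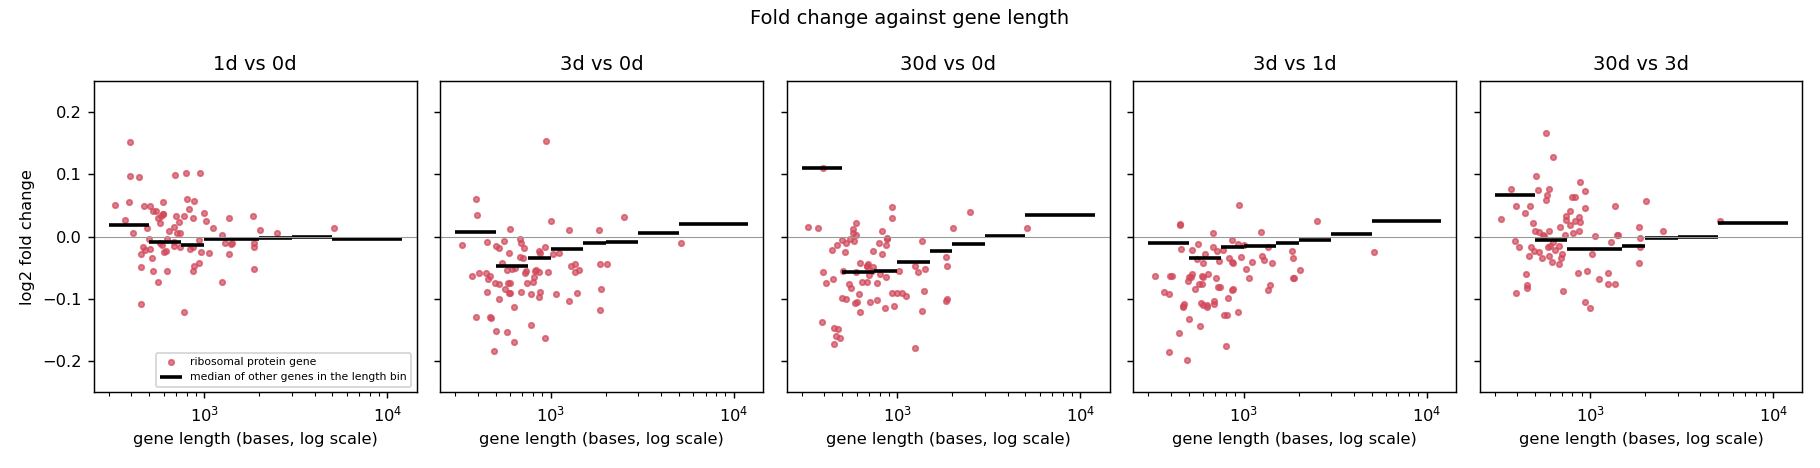
Log2 fold change of 77 of the 78 ribosomal protein genes against exon length in bases (log scale), with black bars for the median of all other tested genes in each bin of length, for the 5 comparisons. For 30d vs 0d the other genes of 500 to 1000 bases lie at -0.056, as the members do, and those of at most 500 bases at 0.11, while for 3d vs 1d the genes of 500 to 1000 bases lie at -0.024, above the members' -0.064.

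Other parts of the translation machinery were followed in the same way. In 5 lists, edgeR called 0 genes in any of the 5 comparisons, and the unadjusted p was under 0.05 in at most 10 genes of a list. For 30d against 0d, where 12.3% of all genes had such a p, these were 10 of the 77 mitochondrial ribosomal proteins and 5 of the 17 regulators of ribosomal protein translation. Of 10 symbols listed for ribosomal protein genes that the pattern leaves out, 8 were in the table. Among them were Rps27rt, which shares read pairs with Rps27, and Fau, whose protein is made as a fusion with a protein like ubiquitin. The symbols not found were Rack1, another name of the listed Gnb2l1, and the pseudogene Rpl36-ps3. Against 0d, the median of the 8 was 0.018 for 1d, -0.038 for 3d and -0.040 for 30d. The 19 translation factors and other TOP mRNAs had medians of 0.020, -0.033 and -0.021. Eef1a1, which brings aminoacyl-tRNA to the ribosome, held 1537 and 1555 CPM at 0d and 1553 and 1511 CPM at 3d, with overlap. From 1d to 3d, 17 of these 19 genes were lower, with a median of -0.041.

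The 30 genes of ribosome biogenesis and RNA polymerase I had a median of 0.029 for 1d, 0.0083 for 3d and -0.048 for 30d against 0d, with 23 of 30 lower at 30d. From 1d to 3d, where most ribosomal protein genes were lower, 15 of these 30 were lower. The 17 regulators of ribosomal protein translation, mTOR among them, had medians of -0.020, 0.026 and 0.019. The 5 regulators with an unadjusted p under 0.05 at 30d, named after their values were seen, were Akt1s1, Rheb and Eif4e, with log2 fold changes of -0.22, -0.14 and -0.13, and Rps6kb2 and Mtor, with 0.40 and 0.11. The smallest edgeR adjusted p of the 5 was 0.132, for Akt1s1. The gene with the largest log2 fold change in these lists was Snhg1, a host gene of small nucleolar RNAs that itself begins with a TOP tract. It held 2.91 and 2.76 CPM at 0d and 4.58 and 5.04 CPM at 30d, and its fitted value was 0.77 on the log2 scale (standard error 0.20, edgeR adjusted p = 0.155). The 77 mitochondrial ribosomal proteins, which build a separate ribosome, had a median of -0.023 for 1d, -0.047 for 3d and -0.087 for 30d against 0d, with 46, 60 and 61 genes lower. These lists were no test of the members, since all share the libraries.

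How the reads were counted limits what a single gene shows. The mouse genome holds many processed pseudogenes of ribosomal proteins, and featureCounts dropped pairs with more than a single mapping place. Most of the 78 genes shared words of 50 bases with a transcript of another gene in GENCODE vM21. The median share of words was 47.4% with any other gene and 36.5% with pseudogenes. Rpl35 had the highest share with any gene, 95.1%, but shared 29.0% with pseudogenes. The largest share of Rpl35 with a single gene, 59.0%, was with Wdr38, which overlaps it on the opposite strand. Words shared with an overlapping gene can lie at the same place in the genome, so these shares are not shares of dropped pairs. As multi-mapping pairs were dropped, the levels count the uniquely mapped pairs alone. The 43 genes with under 50% shared words had a median of 153.3 RPKM and the 35 others of 145.9 RPKM. Of the genes with the smallest p-values, Rpl36a shared 85.5%, Rpl10 85.4%, Rps2 71.3%, Rpl31 70.0% and Rps27 63.1% of their words. With pseudogenes they shared 62.67%, 73.95%, 67.08%, 32.9% and 43.03%, in this order, so their counts are less certain. Of its words Rpl31 shared 37.1% with the overlapping Tbc1d8, and Rps27 63.1% with the overlapping Rps27rt. The members with under 50%, by words shared with any gene, gave medians of -0.054 for 3d against 0d, -0.066 for 30d against 0d and -0.063 for 3d against 1d. Exons of another gene covered over 10% of the length of 8 members, Rpl31 among them. Rpl26 overlapped Gm15772 over 95.8%, Rpl30 Gm12191 over 76.0%, Rps27 Rps27rt over 60.0% and Rpl34 Rpl34-ps1 over 59.9%, each on the same strand. On the opposite strand Rpl5 overlapped Fam69a over 47.8%, Rps25 Ccdc84 over 29.4% and Rps27a Clhc1 over 11.1%. A read pair over such exons was given to each gene.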

How the data were processed

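The authors used cutadapt 2.10 for trimming, STAR 2.7.5a for alignment to mm10 and featureCounts 2.0.1, without strand, for counting read pairs per UCSC gene. Pairs over several genes counted for each, and multi-mapping pairs were dropped. What was deposited are raw counts, with a summed exon length per gene, for 8 libraries of DRG RNA, 2 at each of 0d, 1d, 3d and 30d. Labels gave the groups.

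All libraries were fitted together in R 4.3.3 with edgeR 4.0.16 (filterByExpr, TMM, robust quasi-likelihood F-test, time point as the only term), and p-values were adjusted by Benjamini-Hochberg over 17328 genes. Genes were called at an adjusted p under 0.05. CPM and RPKM are TMM scaled. Intervals are 95% intervals of the fit. The fit was tested on simulated data. Depth of 44123208 to 73580338 counts leaves the spread between pools as the main error. Alternatives were other scalings and filters, no robust estimation, DESeq2 1.42.0, the compared groups alone, a replicate block, removal of a length trend and each library left out. Removal of a GC trend, and members with under 50% shared words, were added after the data had been seen.

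The members and lists were chosen with earlier results of these data known. The genes named are the 3 with the smallest p in each comparison, the 5 highest and 5 lowest per length, paralogs with their partners, the stalk genes and Rpsa. Others were named after their values were seen. A member is not reported singly here and is left out of the plots by gene, while counts and medians include it. Windows and motifs were searched in RefSeq promoter entries, and the definition of the C or T run was set after those entries had been seen.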

Additional observations from a re-analysis of the deposited data

How the results depend on the processing

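The count of members called stayed at 0 under 99 of 100 alternatives over the 5 comparisons. With each library left out in turn it ranged from 0 to 1 for 30d against 0d, the exception being Rpl41 without 30d replicate 2. The log2 fold change of Rpl41 was then -0.30, with an edgeR adjusted p of 0.0114. In such fits the lone library is assumed to vary like the others. The number of lower members ranged from 20 to 58 for 1d against 0d and from 24 to 55 for 30d against 3d, and the median for 3d against 1d ranged from -0.098 to -0.023. Over all alternatives the medians ran from -0.026 to 0.037 for 1d, -0.084 to -0.026 for 3d and -0.086 to -0.027 for 30d against 0d, and from -0.025 to 0.031 for 30d against 3d. None of the 15 fold changes of named members changed sign. These 15 were picked by the smallest p in the same data, so a kept sign was likely beforehand and is no test of them. In the other lists Mrpl33 was the only call, for 30d against 3d without 30d replicate 1, at 0.65 (edgeR adjusted p = 0.015).

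Without the 10 most abundant genes of the table, the members' share of counts was 0.954% and 0.994% in the 0d libraries, 0.957% and 0.997% in the 1d libraries, 0.928% and 0.937% in the 3d libraries, and 0.933% and 0.958% in the 30d libraries. A minimum of 10 CPM left 78 members.

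The replicate block gave 0 members called in all 5 comparisons and changed no call. Over 14621 genes, deviations of libraries with the same number correlated at 0.118 between 0d and 1d and between -0.019 and 0.045 in the other pairs of time points. As the labels tie no number to a shared batch and not every pair was above 0.1, the numbers were not taken to pair the libraries. DESeq2 gave 1, 7, 6, 10 and 1 members with an unadjusted p under 0.05 in the comparisons of 1d, 3d and 30d with 0d, of 3d with 1d and of 30d with 3d, in this order, against 4.06%, 5.3%, 11.1%, 3.77% and 11.7% of all genes. GC content was known for 96% of the tested genes. With the compared groups fitted alone, the members with an unadjusted p under 0.05 were 3 in place of 9 for 30d against 0d. For 3d against 0d they were 11 in place of 8, and for 3d against 1d 15 in place of 10. For 1d against 0d they were 2 in place of 1, and for 30d against 3d 1 as before. The share of all genes was 8.04%, 8.99%, 8.78%, 4.6% and 14.6%, in this order. With the replicate block, the members with such a p were 2, 10, 12, 11 and 1 in the order used for DESeq2, against 4.7%, 6.39%, 12.9%, 4.66% and 13.8% of all genes. With a GC trend removed they were 6 in place of 10 for 3d against 1d and 13 in place of 9 for 30d against 0d, against 4.1% and 12.9% of all genes. With 2 pools per time point, shifts of the size seen here lie at the spread between replicates at 0d, 1d and 30d. The closer replicates of 3d do not change this, as 3d was compared with those time points.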
